A study of Homo sapiens with 4 samples.

Results

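The second 2 h of a niclosamide time course, from 2 h to 4 h of exposure, were examined in an ovarian cancer cell model, array against array. The 4 h array was compared with the 2 h array over the genes with at least 1 probe at a detection p under 0.01 on both, which left 9308 of the 18665 genes named on the array. Of these genes, 7168 were read by 1 detected probe and 2140 by several. The cells, Cp70sps, were obtained from the Cp70 line by the Hoechst exclusion phenotype, were labelled as ovarian tumor-initiating cells, and were kept as suspension cultures without serum, with insulin, bFGF and EGF added. They were exposed for 0, 2, 4 or 6 h to niclosamide at 3 µM, an anthelmintic drug that uncouples mitochondrial respiration from ATP synthesis, and then harvested. Each time had 1 array, 4 in all, so no fold below has an error or a p-value, and precision is limited by there being 1 array a time. The 0 h array was the only one without exposure, and time in culture and time with the drug cannot be told apart.

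Levels are log2 normalized intensities of the brightest detected probe of a gene, a difference is the 4 h level minus the 2 h level, and levels of different genes are not compared. Of the 48803 probes, between 28.3% and 29.6% were detected on each array, and the median intensity lay between 62.4 and 66.0 units. Defining markers of the labelled cells were few. Of 12 epithelial markers 4 were detected on both arrays (EPCAM, KRT18, KRT19 and MUC1), and of 8 ovarian serous carcinoma markers 1 was (CD24), so PAX8, WT1 and MUC16 were not among those detected. VIM, ZEB1 and TWIST1 were the 3 of 8 mesenchymal markers detected, and 6 of 8 fibroblast markers were detected as well. Of 12 tumour-initiating cell and pluripotency markers, ALDH1A1, BMI1, KLF4 and LIN28B were detected and PROM1, SOX2 and NANOG were not. The leukocyte, endothelial and erythroid lists had 1, 1 and 0 members detected. The difference between 4 h and 2 h in these 8 marker lists passed 1.5-fold in 1 gene, the collagen gene COL1A2 at -0.62, whose second probe read -0.06.

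Several gene programmes known to respond to energy supply or to the cell cycle were read beside the single genes. Hypoxia-inducible factors are transcription factors whose alpha subunits are degraded when prolyl hydroxylases have oxygen, and they bind a short core, ACGTG, in front of genes of glycolysis, angiogenesis and oxygen sensing. The integrated stress response halts most translation through phosphorylation of eIF2-alpha and raises the transcription factor ATF4, which pairs with C/EBP proteins on composite elements. Genes of mitosis peak together in G2 and M phase, and many carry a cell cycle homology region, TTTGAA, bound by the DREAM and MuvB complexes.

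From 2 h to 4 h, transcripts of mitosis were higher and transcripts of hypoxia-inducible factor targets and replication-dependent histones lower. The median difference was 0.48 over 46 detected genes of G2/M and mitosis, of which 13 rose at least 1.5-fold and 0 fell. It was -0.34 over 28 detected hypoxia-inducible factor targets, of which 6 fell and 1 rose, and -0.32 over 12 detected histone genes, of which 3 fell and 0 rose. Over all 9308 genes the median difference was 0.03 and the middle 90% of differences ran from -0.49 to 0.47, with 54.1% of genes positive and 45.8% negative. At least 1.5-fold, a log2 difference of 0.585, 197 genes were higher at 4 h (2.12%) and 261 lower (2.8%). At least 2-fold, 9 were higher (0.0967%) and 24 lower (0.258%). With each array scaled to 1 median in place of quantile normalization, the median of all genes moved to 0.09 and the split at 1.5-fold turned from 43.0% to 68.5% higher, with 361 genes higher and 166 lower. Among genes read by several probes, every probe was at least 1.5-fold higher in 2 genes (0.0935%) and at least 1.5-fold lower in 15 (0.701%).

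**Figure D1:**
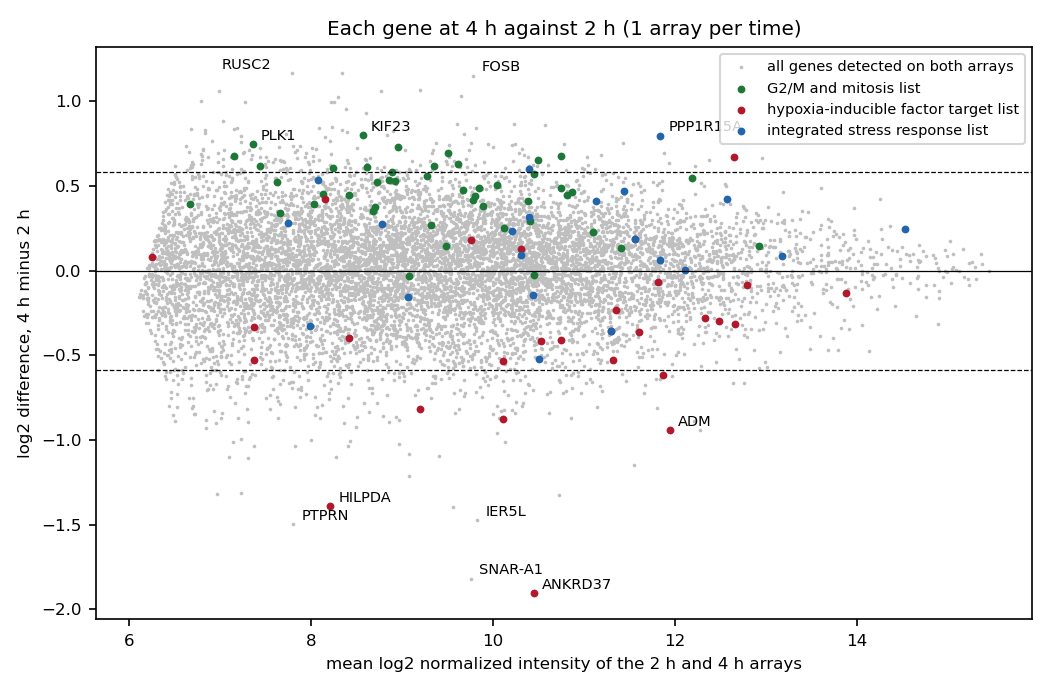
Difference between the 4 h and 2 h arrays (log2, vertical axis) against the mean log2 normalized intensity of those arrays for each of 9308 genes, 1 array per time, with dashed lines at 1.5-fold. Mitosis genes (green) lie mostly above 0 with a median of 0.48, hypoxia-inducible factor targets (red) mostly below with a median of -0.34, and ANKRD37 at -1.90 is the lowest point.

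The promoters of genes that carry these shifts are shown first, 250 bases before to 50 after the transcription start, from RefSeq on GRCh38.p14. ANKRD37, an ankyrin repeat gene known as a hypoxia-inducible factor target, had the largest decrease of the 9308 genes, and its promoter holds the core ACGTG in 2 places, 1 of them inside the E-box CACGTG, which reads as the core on both strands. The window is chr4:185396591-185396890 on the plus strand, and capitals mark the motif.

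ANKRD37: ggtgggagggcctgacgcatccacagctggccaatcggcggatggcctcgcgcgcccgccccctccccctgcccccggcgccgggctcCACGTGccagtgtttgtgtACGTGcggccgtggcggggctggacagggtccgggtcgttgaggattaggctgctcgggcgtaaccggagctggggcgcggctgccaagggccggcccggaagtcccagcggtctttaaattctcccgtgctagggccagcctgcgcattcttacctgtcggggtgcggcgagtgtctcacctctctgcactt

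The start of the E-box lies 162 bases before the transcription start and the second core 143 bases before it. Counted on either strand, ACGTG stood in a promoter of 14 of the 22 hypoxia-inducible factor targets that have a promoter entry (63.6%), against 33.6% of the 7730 detected genes with one and 21.41% of all 35116 promoters. The E-box CACGTG, which contains it, stood in 6 of the 22 (27.3%), against 13.4% of detected genes and 7.26% of all promoters. No match to either was found in the window of ADM. These are matches of letters, not measured binding. This list, and the mitosis and integrated stress response lists below, were made of genes already known for these programmes. Their motif shares therefore say nothing about the change from 2 h to 4 h.

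For mitosis, promoters of KIF11, which encodes the motor that separates spindle poles, of KIF23, a motor of cytokinesis, of PLK1, a kinase of mitotic entry, and of DLGAP5, a spindle microtubule protein, are shown. They were chosen after their values were seen. KIF11 had every probe higher, and the other three had the largest increases of the list. Capitals mark TTTGAA on the strand shown or TTCAAA where it lies on the opposite strand. The windows are chr10:92592880-92593179 on the plus strand for KIF11, chr15:69414099-69414398 on the plus strand for KIF23, chr16:23678639-23678938 on the plus strand for PLK1 and chr14:55191536-55191835 on the minus strand for DLGAP5.

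KIF11: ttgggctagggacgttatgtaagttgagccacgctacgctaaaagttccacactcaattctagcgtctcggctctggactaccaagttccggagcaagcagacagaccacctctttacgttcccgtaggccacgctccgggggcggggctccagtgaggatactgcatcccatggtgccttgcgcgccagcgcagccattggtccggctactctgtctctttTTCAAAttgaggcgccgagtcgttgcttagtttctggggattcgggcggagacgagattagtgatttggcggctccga
KIF23: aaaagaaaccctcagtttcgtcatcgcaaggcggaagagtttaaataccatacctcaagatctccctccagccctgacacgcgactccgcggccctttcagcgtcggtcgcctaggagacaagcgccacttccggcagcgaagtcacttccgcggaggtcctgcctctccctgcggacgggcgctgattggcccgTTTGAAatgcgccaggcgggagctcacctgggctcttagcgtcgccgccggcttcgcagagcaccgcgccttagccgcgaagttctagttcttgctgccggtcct
PLK1: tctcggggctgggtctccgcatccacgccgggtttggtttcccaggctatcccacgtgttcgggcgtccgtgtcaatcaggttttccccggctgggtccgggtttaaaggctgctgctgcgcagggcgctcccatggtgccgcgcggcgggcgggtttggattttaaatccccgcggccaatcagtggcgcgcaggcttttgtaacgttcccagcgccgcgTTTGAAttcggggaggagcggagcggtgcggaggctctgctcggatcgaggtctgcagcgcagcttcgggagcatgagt
DLGAP5: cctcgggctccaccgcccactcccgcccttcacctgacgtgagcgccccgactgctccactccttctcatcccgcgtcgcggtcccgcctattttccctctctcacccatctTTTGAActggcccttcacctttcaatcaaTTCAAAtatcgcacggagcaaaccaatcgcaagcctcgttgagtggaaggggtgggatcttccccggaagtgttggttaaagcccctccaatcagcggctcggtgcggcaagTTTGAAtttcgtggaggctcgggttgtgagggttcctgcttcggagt

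The motif lies 28 bases before the start in KIF11, 55 in KIF23 and 29 in PLK1. DLGAP5 holds it at 3 places, 138 and 109 bases before the start and just after it. TTTGAA stood in a promoter of 26 of the 39 mitosis genes with an entry (66.7%), against 13.3% of detected genes and 15.16% of all promoters. CKAP2, the other gene with every probe higher, has no match in its window.

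CHAC1, which encodes a glutathione-degrading enzyme of the integrated stress response, is shown for the ATF4 and C/EBP element TGATGNAA, and was also chosen after its values were seen. Its window is chr15:40953221-40953520 on the plus strand, and the capitals mark the element, here on the opposite strand, 209 bases before the start.

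CHAC1: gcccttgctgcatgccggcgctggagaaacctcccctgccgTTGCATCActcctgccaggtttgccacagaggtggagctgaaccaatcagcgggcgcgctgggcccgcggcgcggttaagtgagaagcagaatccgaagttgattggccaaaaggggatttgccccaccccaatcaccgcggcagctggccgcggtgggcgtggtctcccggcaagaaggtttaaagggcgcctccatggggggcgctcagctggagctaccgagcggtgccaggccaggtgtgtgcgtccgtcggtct

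TGATGNAA stood in a promoter of 4 of 19 integrated stress response genes with an entry (21.1%), namely ATF3, CEBPG, CHAC1 and SLC3A2, against 2.56% of detected genes and 3.62% of all promoters. PPP1R15A and KLHL24, the members with the largest increase, have no match in their windows.

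Hypoxia-inducible factor targets gave the largest single change. Over the arrays at 0, 2, 4 and 6 h, ANKRD37 read 10.61, 11.40, 9.50 and 9.42, which made it 3.74 times lower at 4 h than at 2 h. Its 2 h level was the highest of the 4 arrays and its 4 h and 6 h levels the lowest. HILPDA, which encodes a lipid droplet protein induced by low oxygen, read 8.34, 8.91, 7.52 and 6.94 in the same order and was 2.62 times lower at 4 h. ADM, the gene of the vasodilating peptide adrenomedullin, read 12.40, 12.41, 11.47 and 11.13, a decrease of 1.92-fold. All 3 genes were read by 1 probe each, and in all 3 the levels at 4 h and 6 h lay below those at 0 h and 2 h.

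CXCR4 and PFKFB3 had every detected probe lower. CXCR4 encodes the receptor of the chemokine CXCL12, and its probes read 10.55 at 2 h and 9.67 at 4 h, and 9.31 and 8.23, differences of -0.88 and -1.08. PFKFB3 encodes an enzyme that makes fructose-2,6-bisphosphate, an activator of glycolysis, and its probes differed by -0.62 and -0.90. EGLN1, the gene of the oxygen-sensing prolyl hydroxylase PHD2, fell from 9.60 to 8.79, a difference of -0.82. NDRG1 (-0.54), INSIG2 (-0.53) and the collagen cross-linking LOX (-0.53) were lower without passing 1.5-fold.

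The list did not move as one. BHLHE40, a transcriptional repressor that acts in the circadian clock, rose from 12.31 to 12.98, by 0.67. VEGFA, the angiogenic growth factor, read 9.42, 7.94, 8.37 and 7.88 over the arrays, and its probes differed by 0.42 and 0.08 between 4 h and 2 h. PFKFB4, a relative of PFKFB3, read 13.07, 12.63, 12.33 and 11.72, so its level was lower on each later array and its 4 h to 2 h difference of -0.30 was under the fold used. Of the 28 detected members 22 had a negative difference, against 45.8% of all genes. Of the 8 read by several probes, 5 were negative on every probe and 1 positive on every probe, against 29.1% and 27.6% of all genes with several probes. On the arrays that do not enter this comparison, the median of the list was -0.49 at 6 h relative to 0 h, and 13 of the 28 members were at least 1.5-fold lower there and 2 higher, against 9.86% and 10.1% of all 9308 genes. Relative to 0 h, the median was 0.11 at 2 h and -0.39 at 4 h.

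Other lists of energy metabolism had medians nearer 0 or fewer members past the fold. Glycolysis and lactate export had a median of -0.12 over 19 genes, and 1 fell, HK2, the hexokinase of glucose capture, by probes of -0.81 and -0.28. The 41 nuclear-encoded oxidative phosphorylation genes had a median of -0.08, with 0 past 1.5-fold in either direction and a range of -0.39 to 0.31. The tricarboxylic acid cycle list read 0.09 over 20 genes, also with 0 past the fold. The TXNIP and arrestin-domain genes, which respond to glucose metabolites through MondoA, had a median of -0.38 over 7 genes with 0 past the fold, and ARRDC4, whose probes read -0.45 and -0.40, had the lowest value.

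**Figure D2:**
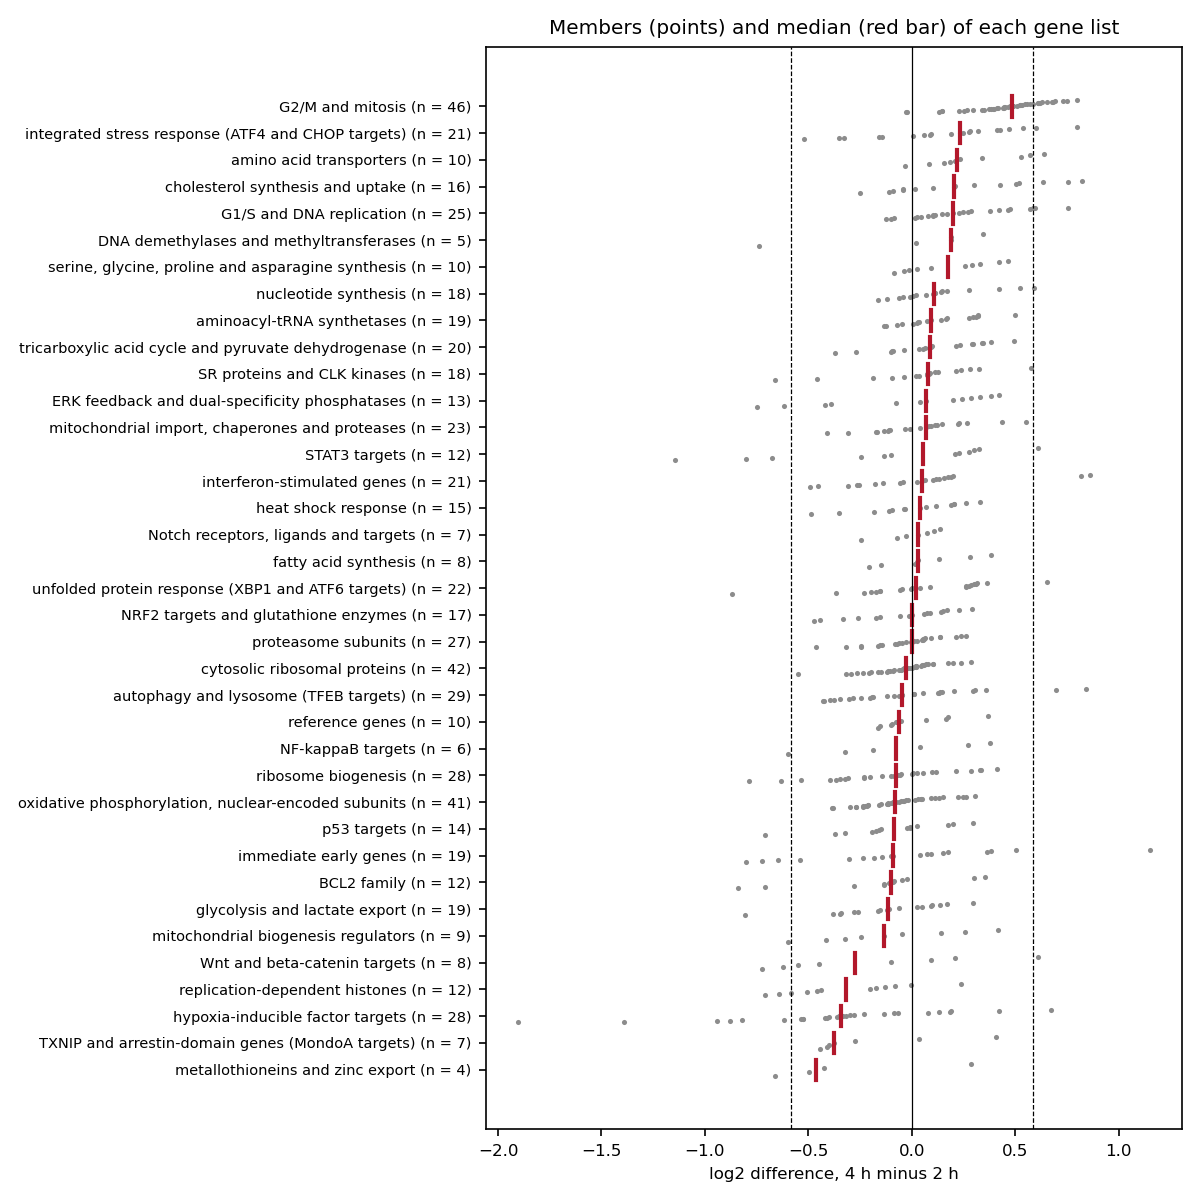
Log2 difference between 4 h and 2 h for each detected member (points) of 37 gene lists, with the list median as a red bar and dashed lines at 1.5-fold. G2/M and mitosis has the highest median, 0.48, and metallothioneins and zinc export, with 4 genes, the lowest, -0.46.

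Transcripts of mitosis were higher at 4 h across most of the list. Of 46 detected genes 44 had a positive difference, against 54.1% of all genes. Of 15 read by several probes 14 were positive on every probe, against 27.6% of all genes with several probes. The 4 h array had the highest level of the 4 in 37 of the 46 (80.4%), against 21.3% of all genes. Relative to 0 h, the list stood at a median of -0.18 on the 2 h array, 0.35 on the 4 h array and -0.07 on the 6 h array. The number past 1.5-fold ranged from 7 to 21 with the processing, being 7 without background correction and 21 with median scaling. In RNA from whole cultures, more cells in mitosis and more of these transcripts per cell cannot be told apart.

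KIF11 was past the fold on both of its probes. The first read 9.12, 9.30, 9.93 and 9.49 over the 4 arrays and the second 9.33, 9.02, 9.96 and 9.31, and they rose by 0.63 and 0.95. The 4 h array was the highest on each. CKAP2, which encodes a spindle and microtubule protein and is not on the list, rose by 0.59 on both of its probes, just past the fold, and by 0.55 without background correction. KIF23 rose from 8.17 to 8.97, and its dimmer second probe differed by 0.57. PLK1 read 7.80, 6.99, 7.73 and 7.18 at 0, 2, 4 and 6 h, so its increase of 0.75 brought the 4 h level back near that at 0 h. DLGAP5 rose from 8.59 to 9.32.

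Among kinetochore, checkpoint and spindle genes, further members rose. NUF2, a subunit of the kinetochore complex that holds microtubules, rose by 0.68, the centromeric histone gene CENPA by 0.61, and the checkpoint kinase gene BUB1B by 0.62. PRC1, which bundles the central spindle, rose by 0.68 and NUSAP1, a spindle-associated protein gene, by 0.66. The mitotic cyclin CCNB1 (0.53) and its kinase CDK1 (0.44), the kinase AURKA (0.45 on both probes) and the topoisomerase TOP2A (0.47) were higher without passing 1.5-fold. CDC25B at -0.02 and the cohesin-protecting SGO2 at -0.03 were the 2 members with negative values.

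Some of the largest single increases lay near this group. TROAP, which encodes a spindle-associated protein, read 8.51, 8.24, 9.30 and 8.57 at 0, 2, 4 and 6 h and was 2.09 times higher at 4 h than at 2 h. DEPDC1, a gene with high transcript levels in mitosis, read 7.82, 7.76, 8.75 and 8.36. Its difference rounds to 1.00 and lay just under the 2-fold limit, while ADAMTS3, also 1.00, lay just over it. FANCI, a DNA crosslink repair gene, read 8.75, 7.79, 8.81 and 8.004 and was 2.03 times higher.

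Genes of DNA replication had a smaller shift. The 25 detected genes of G1/S and replication had a median of 0.20, and 2 of them rose at least 1.5-fold, against 2.12% of all genes. With the processing, this number ran from 1 to 4. Among 11 members read by several probes, 6 were positive and 0 negative on every probe, against 27.6% and 29.1% of all genes with several probes. E2F2, an activator of S phase genes, rose from 9.38 to 10.14, by 0.76. RFC3, a subunit of the clamp loader, rose by 0.60 on its brighter probe and differed by 0.35 on the other. CDT1, the replication licensing factor, read 10.04, 8.68, 9.26 and 8.99, a difference of 0.58 that fell just short of 1.5-fold. Relative to 0 h the list stood at -0.14, 0.02 and -0.27 on the later arrays. The 0 h and 4 h levels lay on one side of the 2 h and 6 h levels in 20 of the 25 genes. Over all genes this share was 47.7%.

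Replication-dependent histones, whose transcripts are made in S phase and mostly lack a poly(A) tail, had a negative difference in 11 of the 12 genes detected of 45 listed, against 45.8% of all genes. H2AC20 read 10.14, 9.99, 9.28 and 9.64 at 0, 2, 4 and 6 h and fell by 0.71. H2AC18 fell by 0.64 and 0.60 on its probes, from 10.29 to 9.65 on the brighter one, and H2AC6 fell by 0.59 from a low level of 7.25. In 7 of the 12 genes the 4 h array was the lowest, against 14.5% of all genes. The exception was H4C3, at 0.24. Histone genes include near-identical copies, so which copy a probe reads is uncertain, as for H2AC18. Without a filter on detection the median of the list was -0.08.

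**Figure D3:**
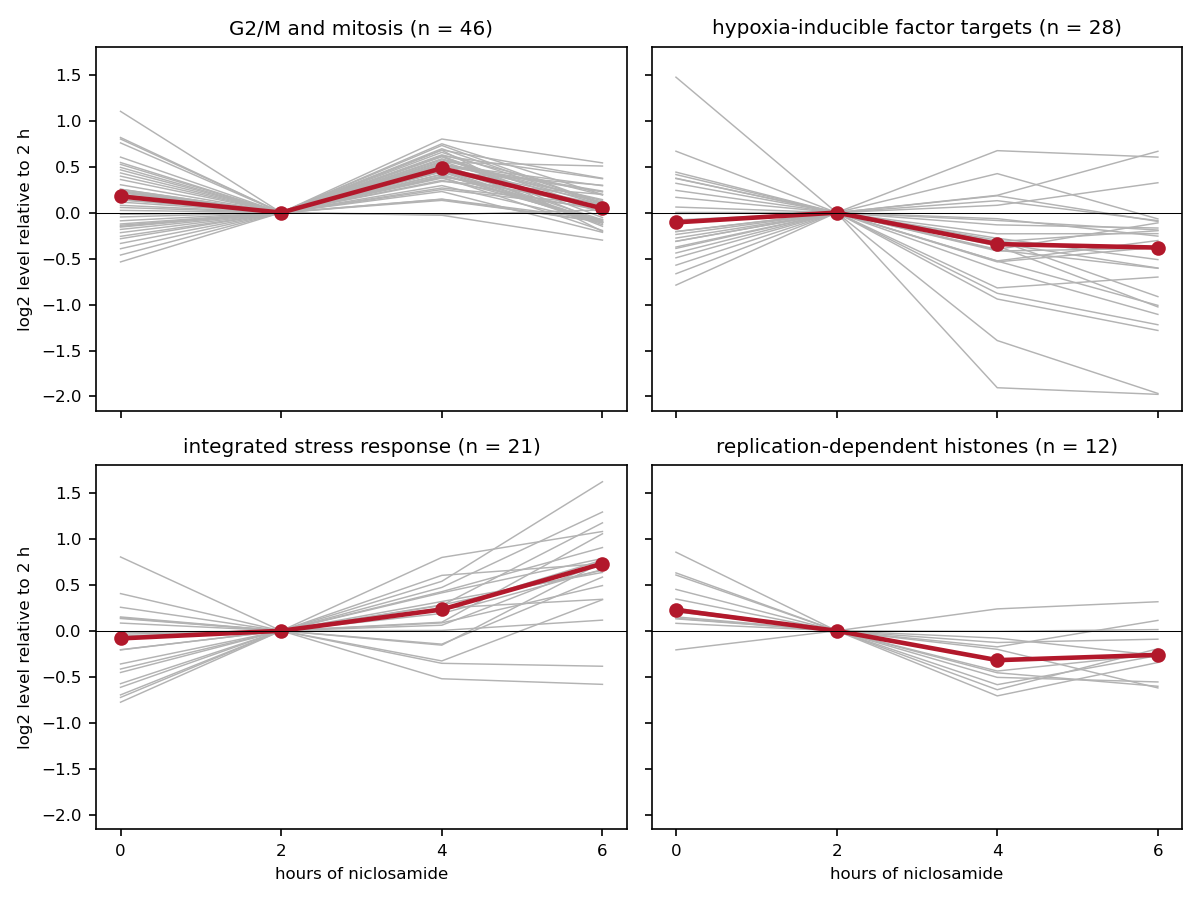
Log2 level relative to the 2 h array at 0, 2, 4 and 6 h for each detected member (grey) of 4 gene lists, with the list median in red, 1 array per time. The mitosis median peaks at 4 h, that of hypoxia-inducible factor targets is lower at 4 h and 6 h than at 2 h, and that of integrated stress response genes is highest at 6 h.

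By their list median, integrated stress response genes were higher at 4 h than at 2 h and higher again at 6 h. The 21 detected genes had a median difference of 0.23 between 4 h and 2 h. Past 1.5-fold, 2 were higher and 0 lower, against 2.12% and 2.8% of all genes. With the processing, the number higher ran from 1 to 3. The 6 h array stood 0.79 above the 0 h array by the list median. Relative to 0 h the median was 0.08 at 2 h and 0.35 at 4 h. PPP1R15A, which encodes GADD34, the phosphatase subunit that ends the response, read 11.58, 11.44, 12.23 and 12.52 at 0, 2, 4 and 6 h and rose 1.74-fold between 2 h and 4 h. KLHL24, an adaptor of ubiquitin ligases, rose from 10.10 to 10.70, by 0.60. Both genes were read by 1 probe each and were highest at 6 h.

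CHAC1 read 7.12, 7.81, 8.35 and 9.44 and DDIT3, the gene of the transcription factor CHOP, 10.48, 11.21, 11.68 and 12.50 in the same order. Their 4 h to 2 h differences, 0.54 and 0.47, were under 1.5-fold and came from 1 probe each. Both levels were higher on each later array. ATF3, a stress-induced transcription factor, and TRIB3, a pseudokinase that restrains ATF4, differed by 0.09 and 0.06 between 4 h and 2 h and by 1.63 and 0.82 between 6 h and 0 h. ATF4 itself gave 0.25, 0.17 and -0.35 on 3 probes. VLDLR, a lipoprotein receptor of the same list, differed by -0.52. Of the 21 members 16 had a positive difference, against 54.1% of all genes. Only 3 members were read by several probes. Of these, 1 was positive and 1 negative on every probe, against 27.6% and 29.1% of all genes with several probes.

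Amino acid transporters, many of them ATF4 targets, had a median of 0.22 over 10 genes. SLC7A6 rose by 0.64 on its brighter probe and differed by 0.19 on the other, and SLC7A5 (0.57) and SLC7A1 (0.53), carriers of large neutral and of cationic amino acids, were just under the fold. Enzymes of serine, glycine, proline and asparagine synthesis read 0.17 over 10 genes and aminoacyl-tRNA synthetases 0.09 over 19, each with 0 past 1.5-fold. The unfolded protein response list read 0.02 over 22 genes, within which XBP1, its central transcription factor, rose by 0.65 and CALR, an endoplasmic reticulum chaperone, fell by 0.87. The second probe of XBP1 differed by 0.45, under the fold.

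Some cholesterol genes rose. Over 16 genes of synthesis and uptake the median was 0.20, and 5 had a negative difference. At least 1.5-fold, 3 were higher and 0 lower, against 2.12% and 2.8% of all genes. With the processing, the number higher ran from 2 to 5 and the number lower from 0 to 1. CYP51A1, the lanosterol demethylase, read 9.39, 8.49, 9.31 and 9.13 at 0, 2, 4 and 6 h. INSIG1, the sterol sensor that retains SREBP, read 11.65, 11.05, 11.81 and 11.43, and HMGCS1, which makes the precursor of mevalonate, 12.08, 11.62, 12.26 and 12.16. In all 3 the 2 h array was the lowest, and the increases between 2 h and 4 h were 0.82, 0.75 and 0.64. These 3 were picked by their rise from 2 h, so a low 2 h level is partly built in. The median of the whole list relative to 0 h was 0.11 at 2 h and 0.18 at 4 h. The second probe of INSIG1 differed by 0.38. Fatty acid synthesis genes read 0.03 over 8 genes with 0 past the fold.

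Transcription factors of the immediate early group split. FOSB, a partner of JUN in AP-1, read 10.49, 9.20, 10.36 and 10.21 and rose 2.22-fold. JUNB fell by 0.80, FOSL1 by 0.65 and EGR3 by 0.72, although the second probe of EGR3 differed by 0.00. The list median was -0.09 over 19 genes. STAT3 targets had a median of 0.05 over 12 genes, with CEBPD (-1.15), JUNB and the kinase gene PIM2 (-0.67) lower and BIRC5, the survivin gene, which is also on the mitosis list, higher by 0.61. CEBPD read 11.34, 12.12, 10.98 and 11.04, highest at 2 h.

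Wnt and beta-catenin targets had a median of -0.27 over 8 of 17 genes, with 2 lower and 1, BIRC5, higher. Of all genes, 2.8% were lower and 2.12% higher. With the processing, the number lower ran from 0 to 2 and the number higher from 0 to 1. The list median ran from -0.28 to -0.14. ASCL2, a stem cell transcription factor, fell by 0.72. NOTUM, a secreted Wnt-inactivating enzyme, fell by 0.62 and 0.65 on its probes. MYC (-0.10 and -0.04) and CCND1 (0.21) did not pass the fold.

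**Figure D4:**
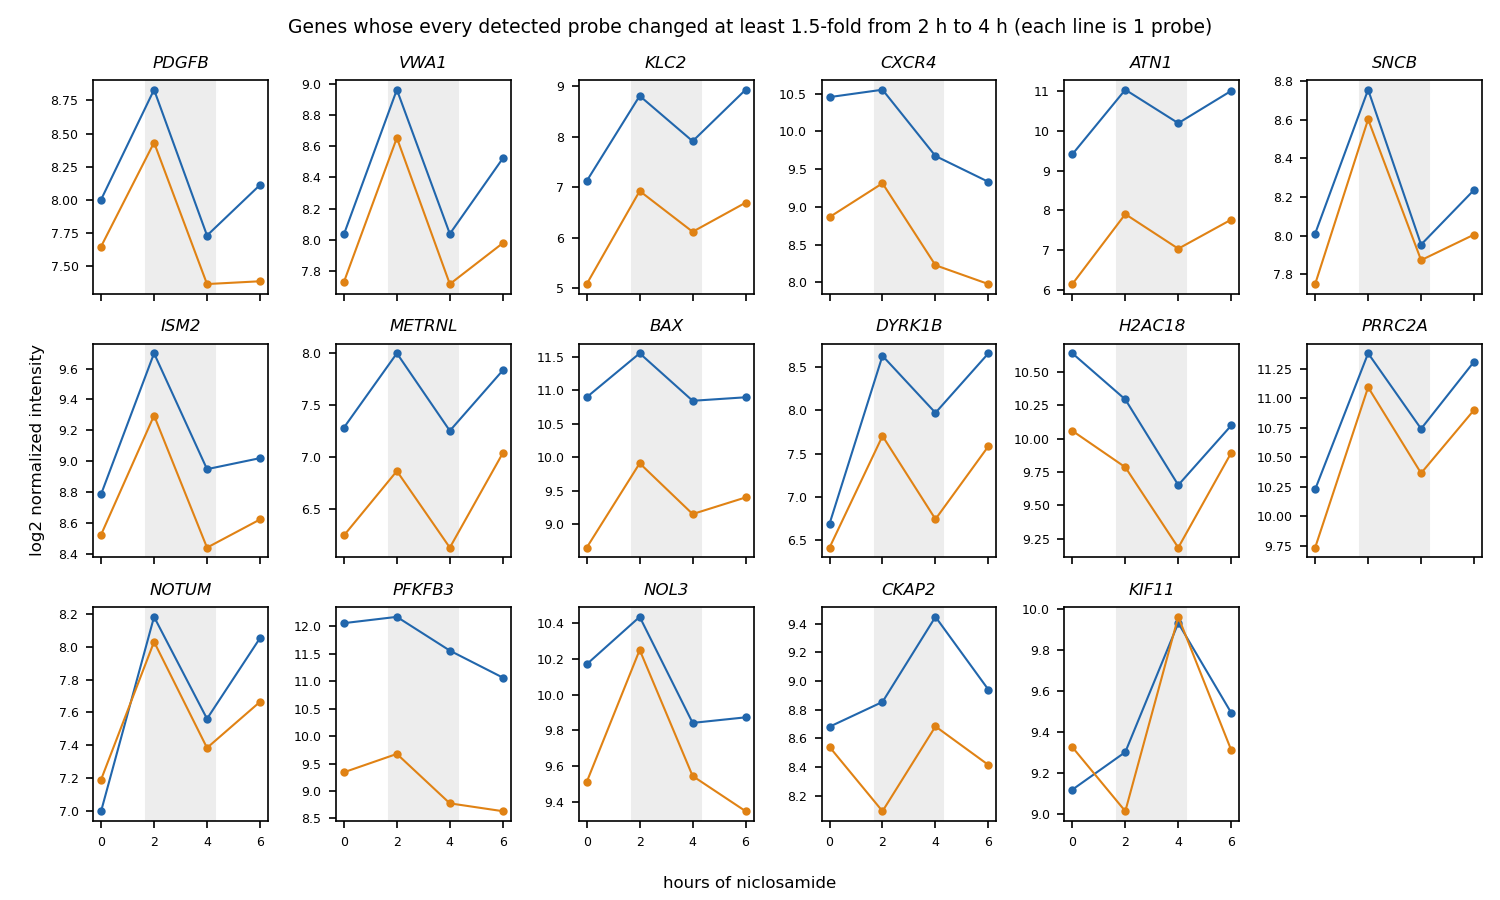
Log2 normalized intensity at 0, 2, 4 and 6 h of each detected probe (1 line each) of the 17 genes whose every probe passed 1.5-fold between 2 h and 4 h (shaded). All probes drop in the first 15 genes and rise in CKAP2 and KIF11, and in most of the lower genes the 2 h array is the highest. The lower genes were chosen by their fall from 2 h, so a high 2 h level is partly built in.

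Genes with every probe lower were of mixed function. PDGFB, the gene of a platelet-derived growth factor chain, read 8.002, 8.83, 7.73 and 8.11 on its brighter probe and fell by 1.10 and 1.07 on its probes, the only gene of the 15 with every probe past 2-fold. BAX, the pore-forming inducer of apoptosis, read 10.90, 11.55, 10.85 and 10.90 and fell by 0.71 and 0.76. VWA1, an extracellular matrix protein gene, fell by 0.92 and 0.94, and ATN1, the atrophin-1 gene, by 0.84 and 0.87. KLC2 encodes a kinesin light chain, METRNL a secreted meteorin-like protein and SNCB beta-synuclein, and their brighter probes fell by 0.90, 0.75 and 0.80. DYRK1B, a kinase of the DYRK family, read 6.68, 8.63, 7.97 and 8.66 and fell by 0.66 and 0.96. The other members were ISM2, PRRC2A, NOL3 and the genes CXCR4, PFKFB3, NOTUM and H2AC18 described with their lists. With median scaling, the brighter probes of DYRK1B, H2AC18, NOL3, NOTUM, PFKFB3 and PRRC2A fell short of 1.5-fold. BOK, a relative of BAX read by 1 probe, fell by 0.84. The BCL2 family as a whole read -0.10 over 12 genes with 2 lower and 0 higher, against 2.8% and 2.12% of all genes.

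Agreement between probes was limited. Of 33 genes with several probes whose brightest passed 1.5-fold upward, 24 had the same sign on all probes and 2 passed on all, and of 40 that passed downward 32 and 15 did. The other calls, 164 higher and 221 lower, came from genes with 1 probe. Over 1786 genes read by exactly 2 detected probes, the differences of the probes correlated with a Pearson coefficient of 0.35 and a Spearman coefficient of 0.33 and shared their sign in 1069 genes (59.9%). This correlation is across genes of the same arrays, and genes are not independent replicates. For L1CAM, a cell adhesion gene, 1 probe gave -1.31 and the other -0.24.

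The largest decreases were mostly levels that had stood high at 2 h. These genes, and the largest increases given below, were ranked by the 4 h to 2 h difference. A high 2 h level among the decreases, and a low one among the increases, is therefore partly built in. PTPRN, a secretory granule phosphatase-like protein gene, read 6.97, 8.56, 7.06 and 7.96 at 0, 2, 4 and 6 h, a decrease of 2.83-fold between 2 h and 4 h. IER5L read 9.20, 10.56, 9.09 and 9.58 and PPDPF 8.38, 10.25, 8.86 and 9.94. In each the 0 h and 4 h arrays were both below the 2 h and 6 h arrays. CDC42BPB, a kinase acting with CDC42, fell by 1.32, the transcription factor gene TFAP4 by 1.32 and the deubiquitinase gene JOSD2 by 1.21, in the same order of arrays. TFAP4 was dim at 4 h, at 6.31, and its 0 h level of 6.15 lay below the dimmest detected 0 h signal of 6.26. With the processing its difference ran from -1.33 to -0.99. PACS1, a sorting protein gene of the trans-Golgi, read 8.55, 10.52, 9.56 and 10.38 and fell by 0.96.

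SNAR-A1, a small noncoding RNA bound by NF90, was low on 1 array. It read 10.46, 10.67, 8.85 and 10.43, so the 4 h array was 3.53 times lower than the 2 h array and the other 3 lay between 10.43 and 10.67. It belongs to a family of near-identical copies, so which copies its probe reads is uncertain.

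The largest increases were mostly in the reverse order, with both the 0 h and 4 h arrays above the 2 h and 6 h arrays. RUSC2 did not have it, and read 7.81, 7.21, 8.38 and 8.05, which made it 2.25 times higher at 4 h than at 2 h. In that order of arrays, TOP3B, a topoisomerase gene, rose by 1.07, the homeobox gene ISL2 by 1.06 and the synaptic adhesion gene NLGN2 by 1.03. ISL2 was dim at 2 h, at 6.46, and with the processing its difference ran from 0.80 to 1.12. IRF1, an interferon-regulated transcription factor gene, read 10.05, 7.98, 8.80 and 7.79 and rose by 0.82. The interferon-stimulated list read 0.05 over 21 genes with 2 higher and 0 lower, against 2.12% and 2.8% of all genes. Of these 2, IFI6 rose by 0.86 on its brighter probe and read -0.02 on the other.

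Over all genes, 47.7% had their 0 h and 4 h levels both above or both below their 2 h and 6 h levels. Of the 197 genes higher at 4 h, 122 (61.9%) had this order, and of the 261 lower genes 195 (74.7%). The 2 h and 4 h levels that chose these genes also enter the order. A share above that of all genes is therefore partly built in by the choice. On the 6 h and 0 h arrays, which share no array with this comparison, 120 of the 261 lower genes were at least 1.5-fold higher at 6 h than at 0 h and 23 lower, with a median of 0.50. Of the 197 higher genes, 11 were higher and 52 lower, with a median of -0.24. Over all 9308 genes, 941 (10.1%) were higher and 918 (9.86%) lower on those arrays, with a median of -0.01. Across the 9308 genes the 4 h to 2 h difference and the 6 h to 0 h difference correlated with a Pearson coefficient of -0.26 and a Spearman coefficient of -0.23, a description across genes of 4 single arrays. By list, this order held in 24 of 46 mitosis genes (52.2%), near the 47.7% of all genes, and in 20 of 25 replication genes (80.0%). It held in 5 of 28 hypoxia-inducible factor targets (17.9%), 2 of 21 integrated stress response genes (9.5%) and 0 of 12 histone genes. Of the 15 genes with every probe lower, 10 had it, and of the 2 with every probe higher 0 did. Whether it comes from the arrays or from the cells was not tested.

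Between arrays, the agreement of paired probes varied with the pair. Over 1710 genes with 2 probes detected on all arrays, the Pearson coefficient between the probes was 0.35 for 4 h against 2 h, 0.07 for 2 h against 0 h and 0.64 for 6 h against 2 h. The robust spread of differences was taken over all named probes detected on both arrays of a pair, so its probes differ between pairs. It was 0.27 for 4 h against 2 h (11847 probes), 0.38 for 2 h against 0 h (11559) and 0.22 for 6 h against 2 h (11663). These pairs share arrays, so their values are given side by side only.

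Lists of housekeeping function moved little. Cytosolic ribosomal proteins read -0.03 over 42 genes, proteasome subunits 0.00 over 27 and heat shock genes 0.04 over 15, each with 0 members past 1.5-fold in either direction. The 10 reference genes had a median of -0.06, from -0.16 for GAPDH to 0.37 for YWHAZ. Of 10 genes of metallothioneins and zinc export 4 were detected, with a median of -0.46. The metal-binding MT2A fell from 12.97 to 12.31, MT1X differed by -0.50 and the zinc-sensing transcription factor gene MTF1 by -0.43, while SLC30A1, the zinc exporter gene, gave 0.28 and 0.44 on its probes. The lysosomal and autophagy list read -0.05 over 29 genes with 2 higher and 0 lower, against 2.12% and 2.8% of all genes. These 2 were FNIP1, by 0.84, and TFE3, a transcription factor of lysosome genes, by 0.70.

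A further 396 genes were detected on 1 of the 2 arrays only. Each was set against the dimmest detected signal of the array that missed it. A level above that signal gives a minimum difference, and 0 of these minimum differences reached 2-fold in either direction. The true differences of such genes may be larger. Some genes detected at 4 h only, such as ZCWPW2 at 6.03, lay below the dimmest detected 2 h level of 6.18. These give no minimum difference. At the limit itself, 119 genes had a detection p of 0.0092 and were kept, with differences of -0.89 to 0.84, and 34 genes at 0.0105 were left out, with differences of -0.70 to 0.51. Of 1978 detected probes without a single gene symbol, 36 were at least 1.5-fold higher and 60 lower. Among the named genes detected on both arrays, 2.12% were higher and 2.8% lower.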

How the data were processed

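Total RNA of 1 culture sample per time was hybridized as biotin-labelled cRNA to a human Illumina bead array. The authors deposited a non-normalized intensity for each probe, and the submitters' processing notes name BeadStudio. Beside it stands, per the file headers, a detection p-value. The authors' processed intensity values matched a quantile normalization of the non-normalized ones on the linear scale within 1.462% and served as an alternative.

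In R 4.3.3, limma 3.58.1 removed background by normexp, with the negative controls' level estimated from detection p, and added an offset of 16. After that, values were quantile normalized over the 4 arrays and log2 was taken. Probes needed a detection p under 0.01 on the 2 h and 4 h arrays, and a gene was given by the brightest such probe. Background correction, normalization and the 2-fold calls were tried on simulated data with changes larger than 2-fold put in. The 1.5-fold calls, the choice of the brightest probe and the every-probe rule were not tried there. No statistical test was run, since each time has 1 array.

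Among 27591 annotated probes, 27578 have 1 gene symbol, 13 have several, and 27541 have an Entrez identifier in the RefSeq table. The other 21225 probes of the array, those 13 among them, were left unnamed.

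Members, the 45 gene lists and motifs were chosen with earlier results of these data known. Named genes were those with every probe past 1.5-fold (up to 15 a direction), the 10 largest changes each way, for each list up to 4 members, largest change first, and 14 genes always named. Of the 10 largest increases, 1 is not reported here. Other list members were named after their values were seen, as were CENPA, BUB1B and the other kinetochore and spindle genes given. Promoters were matched by symbol for 7730 of the 9308 genes, and HILPDA has no entry. Alternatives changed the background step, normalization, offset, detection limit, probe summary and source of the values.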

Additional observations from a re-analysis of the deposited data

How the results depend on the processing

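With 1 array per time no replicate could be left out. No paired analysis was possible because each time has 1 array and no test was run. Without background correction, and likewise from the authors' processed values, 2 genes were at least 2-fold higher and 12 lower, 102 and 164 passed 1.5-fold, and every probe passed in 1 and 9. With median scaling these counts were 14 and 14, 361 and 166, and 6 and 9. With an offset of 50, 4 were 2-fold higher, 13 were 2-fold lower, 114 were 1.5-fold higher and every probe was higher in 1. Every probe was higher in 6 genes at a detection p under 0.05 and in 5 with no detection filter. The other counts stayed within 1.5 times those reported under these settings, under quantile normalization of the 2 h and 4 h arrays alone, with detection required on all 4 arrays and with the mean of detected probes. An offset and background correction act most on dim probes by construction, and the cause of the shift under median scaling was not tested. No named gene changed sign where it passed the fold, and 63 values in 27 genes fell below 1.5-fold, among them CKAP2, KLHL24 and NOL3. Medians ranged from 0.45 to 0.57 for mitosis, from -0.38 to -0.28 for hypoxia-inducible factor targets, from 0.15 to 0.26 for the integrated stress response and from -0.32 to -0.08 for histones. Signal near background limits dim genes, and the number of arrays limits all.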

Other observations

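The lists not described above had medians between -0.14 and 0.19 for 4 h against 2 h, where all genes had 0.03. Beside the counts past 1.5-fold given here, all genes had 2.12% higher and 2.8% lower. Nucleotide synthesis read 0.11 over 18 genes, with IMPDH1, the rate-limiting enzyme of guanine nucleotide synthesis, higher by 0.59 and 0 lower. Mitochondrial import, chaperones and proteases read 0.07 over 23 genes with 0 past 1.5-fold, and NRF2 targets and glutathione enzymes 0.00 over 17 genes with 0. Mitochondrial biogenesis regulators read -0.14 over 9 genes, with PPARGC1B, a coactivator of mitochondrial genes, lower by a difference of -0.60 at a level close to background. SR proteins and CLK kinases read 0.08 over 18 genes, where DYRK1B was the 1 member lower.

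DNA demethylases and methyltransferases read 0.19 over 5 genes, and TET1, a 5-methylcytosine oxidase gene, read 7.35, 7.92, 7.18 and 6.50 at 0, 2, 4 and 6 h, a difference of -0.74. ERK feedback and dual-specificity phosphatases read 0.07 over 13 genes, with DUSP8 at -0.75 and PHLDA1 at -0.62 lower. Ribosome biogenesis read -0.08 over 28 genes, with MYBBP1A at -0.79 and PPAN at -0.63 lower. The p53 targets read -0.08 over 14 genes with BAX lower, the NF-kappaB targets -0.07 over 6 genes with NFKB2 lower at -0.60, and the Notch list 0.03 over 7 genes with 0 past the fold. The second probe of NFKB2 differed by -0.38, under the fold.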
